A study of Mus musculus with 656 samples.

Results

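Ccl2, Ccl7 and Ccl9 encode CC chemokines that draw monocytes out of the blood, and they were followed through a time course of cytokine stimulation in mouse 3T3 cells, an established fibroblast line. The members were chosen by name, as the rows of the deposited count table whose Ensembl identifiers carry these symbols, which gave 3 genes of 22070. The cells were left unstimulated, or received IL-1β (1 ng/ml), or instead TNF-α (10 ng/ml), and were collected after 15, 30, 60, 120 or 360 min. SC-514, a small molecule that blocks IKKβ, was in the medium for 1 h before the cytokine, at 0, 25, 50 or 100 µM. Each of the 41 resulting groups had 4 libraries of 3′ poly-A-directed RNA sequencing (TagSeq), 164 in all.

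All groups share the same cell line, serum-containing medium and genetic background, and no genotype differs between them. No group received SC-514 without a cytokine, the unstimulated group is labelled with neither agent, and the labels do not say whether the medium at 0 µM held the inhibitor's solvent. The labels name no separate cultures behind the 4 libraries of 1 group, and every p-value here measures the spread between libraries, which may be technical. The prefixes of the sample titles and those of the column names run in opposite directions for the cytokines, and the stimulus field, which goes with the column names, was followed. "Labelled IL-1β" and "labelled TNF-α" are used for that reason, and "with IL-1β" or "with TNF-α" below also means the label. If the labels were exchanged, the direction of every difference between the cytokines would be reversed, and this was not tested. Each cytokine also goes together with its own set of columns, so cytokine and column set cannot be told apart. The columns of the unstimulated group are a further set with a prefix of its own. Every comparison with the unstimulated group therefore also crosses column sets, and stimulus and column set cannot be told apart there either.

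Ccl2 (also called MCP-1) and Ccl7 (MCP-3) signal mainly through the receptor Ccr2, which carries inflammatory monocytes out of the bone marrow and into tissue. Ccl9 (MIP-1γ) is a rodent chemokine that acts through Ccr1 on monocytes, macrophages and osteoclast precursors. Fibroblasts are a known source of such chemokines during inflammation. IL-1β and TNF-α both engage IKKβ, which marks the inhibitory protein IκBα for destruction and so frees NF-κB to enter the nucleus, the step at which SC-514 acts.

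All 3 genes are protein-coding and lie on mouse chromosome 11 (GRCm38, GENCODE M21 annotation). Ccl2 (ENSMUSG00000035385.5) spans 82035571 to 82037453 and Ccl7 (ENSMUSG00000035373.2) spans 82045712 to 82047525, both on the plus strand with 8258 bases between them. Ccl9 (ENSMUSG00000019122.8) lies on the minus strand at 83572919 to 83578636, 1525 kb further along. Gm17268, a gene on the minus strand, overlaps the whole of Ccl2. The deposited count table has no row for Gm17268, so it could not be analysed. As the strand setting of the counting is not given in the sources used here, reads from either gene cannot be told apart at that place.

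The sequence before the start site is shown for Ccl9 because, of the 3 members, only Ccl9 had an entry in the promoter table used. It is the 250 bases before the start in RefSeq's annotation of GRCm38.p6, chr11:83578637-83578886, read 5′ to 3′ on the minus strand. The promoters of Ccl2 and Ccl7 were not searched, so the members cannot be compared in this respect. Capitals mark matches to 2 searched motifs.
Ccl9: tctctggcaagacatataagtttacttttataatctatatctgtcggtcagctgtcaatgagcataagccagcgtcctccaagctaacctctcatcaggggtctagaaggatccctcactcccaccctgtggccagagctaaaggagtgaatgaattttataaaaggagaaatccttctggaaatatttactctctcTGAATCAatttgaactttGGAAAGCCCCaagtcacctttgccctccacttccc
The run GGAAAGCCCC, 35 to 26 bases before the start, matches on the opposite strand a κB-like pattern of 3 G, any 5 bases and 2 C. The run TGAATCA, 53 to 47 bases before the start, matches the AP-1-like pattern TGANTCA on both strands, and the matches do not overlap. Both strands were searched. Of 32851 promoter windows of this length, 45.8% held the κB-like pattern and 6.75% held the AP-1-like pattern. A match is a description of letters and not evidence that a factor binds there.

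Library totals ran from 928906 to 2469454 counts, with a median of 1282459, apart from 2 shallow libraries. These were library number 1 of the group labelled IL-1β with 50 µM at 30 min (12191 counts) and library number 1 of the group labelled TNF-α with 50 µM at 120 min (3839 counts), in which Ccl9 had 2 counts and 1 count. Levels below are in CPM, counts scaled to a common library size, on sizes corrected by the trimmed mean of M-values (TMM), and 4 libraries stand behind every mean ± SD. All 8 fibroblast markers were expressed, with summed levels of 5057 to 8605 CPM. Outside the shallow libraries, the 8 monocyte and macrophage markers summed to 11.4 to 56.1 CPM. Of the 8, 3 (Cd14, Cd68 and Lyz2) passed the filter on low counts, and none was at 0 in every library. Adgre1, the F4/80 antigen, had 3 counts in all. Among unstimulated cells Ccl2 stood at 943.2, 1071, 1103 and 1099 CPM, Ccl7 at 555.7, 621.5, 539 and 607.2 CPM and Ccl9 at 147.2, 168.5, 143.2 and 144.3 CPM. All 3 genes were thus expressed before any cytokine was added, and all 3 passed the filter that left 10766 genes for testing. Changes are log2 differences with standard errors (SE) from edgeR's quasi-likelihood test over all 41 groups, with Benjamini-Hochberg adjusted p-values over all genes tested, and a gene was called at an adjusted p under 0.05.

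The first question was how each gene responded to a cytokine alone. In libraries labelled IL-1β without inhibitor, 10 of 15 gene-by-time tests against the unstimulated group were called higher. Over all genes tested, the share called higher was 0.121%, 0.725%, 2.74%, 8.17% and 12.3% at 15, 30, 60, 120 and 360 min. In libraries labelled TNF-α, 11 of 15 were called higher, against a share of 0.0836%, 0.557%, 4.15%, 9.14% and 3.62% of all genes tested at the same times. At 15 min no member was called under either label.

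Ccl2 rose within the first 120 min under both labels. With IL-1β its means were 1169 ± 105.4, 1474 ± 189.5, 2458 ± 99.68, 3018 ± 197.5 and 2568 ± 164 CPM from 15 to 360 min. The libraries at 120 min were 3280, 2964, 3023 and 2805 CPM, all above the highest unstimulated library. Against the unstimulated group this was a rise of 1.52 ± 0.115 on the log2 scale, or 2.86-fold (adjusted p = 1.11e-22), and at 360 min the rise was still 1.29 ± 0.115. The earliest call, at 30 min (0.484 ± 0.115, adjusted p = 0.0107), was lost when library number 1, 2 or 3 of every group was left out (adjusted p = 0.123, 0.161 and 0.0689).

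With TNF-α the Ccl2 means were 1382 ± 455.3, 1744 ± 150.3, 3196 ± 255.4, 2721 ± 210.5 and 1548 ± 162.2 CPM. The highest mean came at 60 min, where the libraries were 2818, 3268, 3329 and 3369 CPM and the rise was 1.60 ± 0.116 on the log2 scale (3.03-fold, adjusted p = 1.98e-24). By 360 min the libraries had come down to 1368, 1457, 1711 and 1656 CPM, which is still above every unstimulated library (0.555 ± 0.116, adjusted p = 3.37e-04). The large SD at 15 min came from library number 4, at 2043 CPM against 1001 to 1250 CPM in the other 3. Ccl7 stood apart in the same library, at 1237 CPM against 516.6 to 647.5 CPM.

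Ccl7 also rose by 60 min under both labels. Its means with IL-1β were 617.5 ± 45.98, 816.5 ± 51.34, 1246 ± 39.26, 1282 ± 67.52 and 900.8 ± 129.3 CPM. The libraries at 120 min were 1352, 1263, 1315 and 1196 CPM, about as high as the 1298, 1256, 1213 and 1219 CPM at 60 min. The rise over the unstimulated group was 1.10 ± 0.147 at 60 min, 1.14 ± 0.147 at 120 min and 0.634 ± 0.149 at 360 min (adjusted p = 1.77e-09, 2.29e-10 and 4.96e-04).

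With TNF-α the Ccl7 means were 758.7 ± 324.3, 963.7 ± 114.2, 1426 ± 36.45, 1102 ± 73.79 and 840.3 ± 32.59 CPM. The 60 min libraries, at 1387, 1422, 1475 and 1418 CPM, lay close together and well clear of the unstimulated range. Ccl7 rose by 1.30 ± 0.148 there (2.45-fold, adjusted p = 1.69e-12). At 360 min it was still called higher by 0.533 ± 0.15 (adjusted p = 0.0156), a call lost without library number 1, 3 or 4 of every group (adjusted p = 0.0929, 0.119 and 0.0988).

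Ccl9 had its highest mean at the last time under both labels. Its means with IL-1β were 174.3 ± 13.36, 175.3 ± 8.839, 230.3 ± 14.73, 307.1 ± 35.74 and 462.2 ± 59.83 CPM. The libraries at 360 min were 551.4, 440.3, 433.4 and 423.7 CPM, and the lowest of these exceeded the highest at 120 min, 358.2 CPM. Ccl9 was higher than in unstimulated cells by 0.613 ± 0.0862 at 60 min, 1.03 ± 0.0848 at 120 min and 1.62 ± 0.0837 at 360 min (adjusted p of the last 4.95e-41). The 360 min change was 3.07-fold and had the 6th smallest p of the 10766 genes.

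With TNF-α the Ccl9 means were 181.9 ± 24.42, 183.8 ± 23.96, 262.2 ± 20, 289.8 ± 14.42 and 330.4 ± 23.04 CPM. The libraries at 360 min were 330.3, 298.1, 342.8 and 350.3 CPM, all of them above the unstimulated libraries by a wide margin. The rise was 0.794 ± 0.0876, 0.945 ± 0.0866 and 1.13 ± 0.0861 on the log2 scale at 60, 120 and 360 min, and the last had the 7th smallest p of all genes tested.

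**Figure D1:**
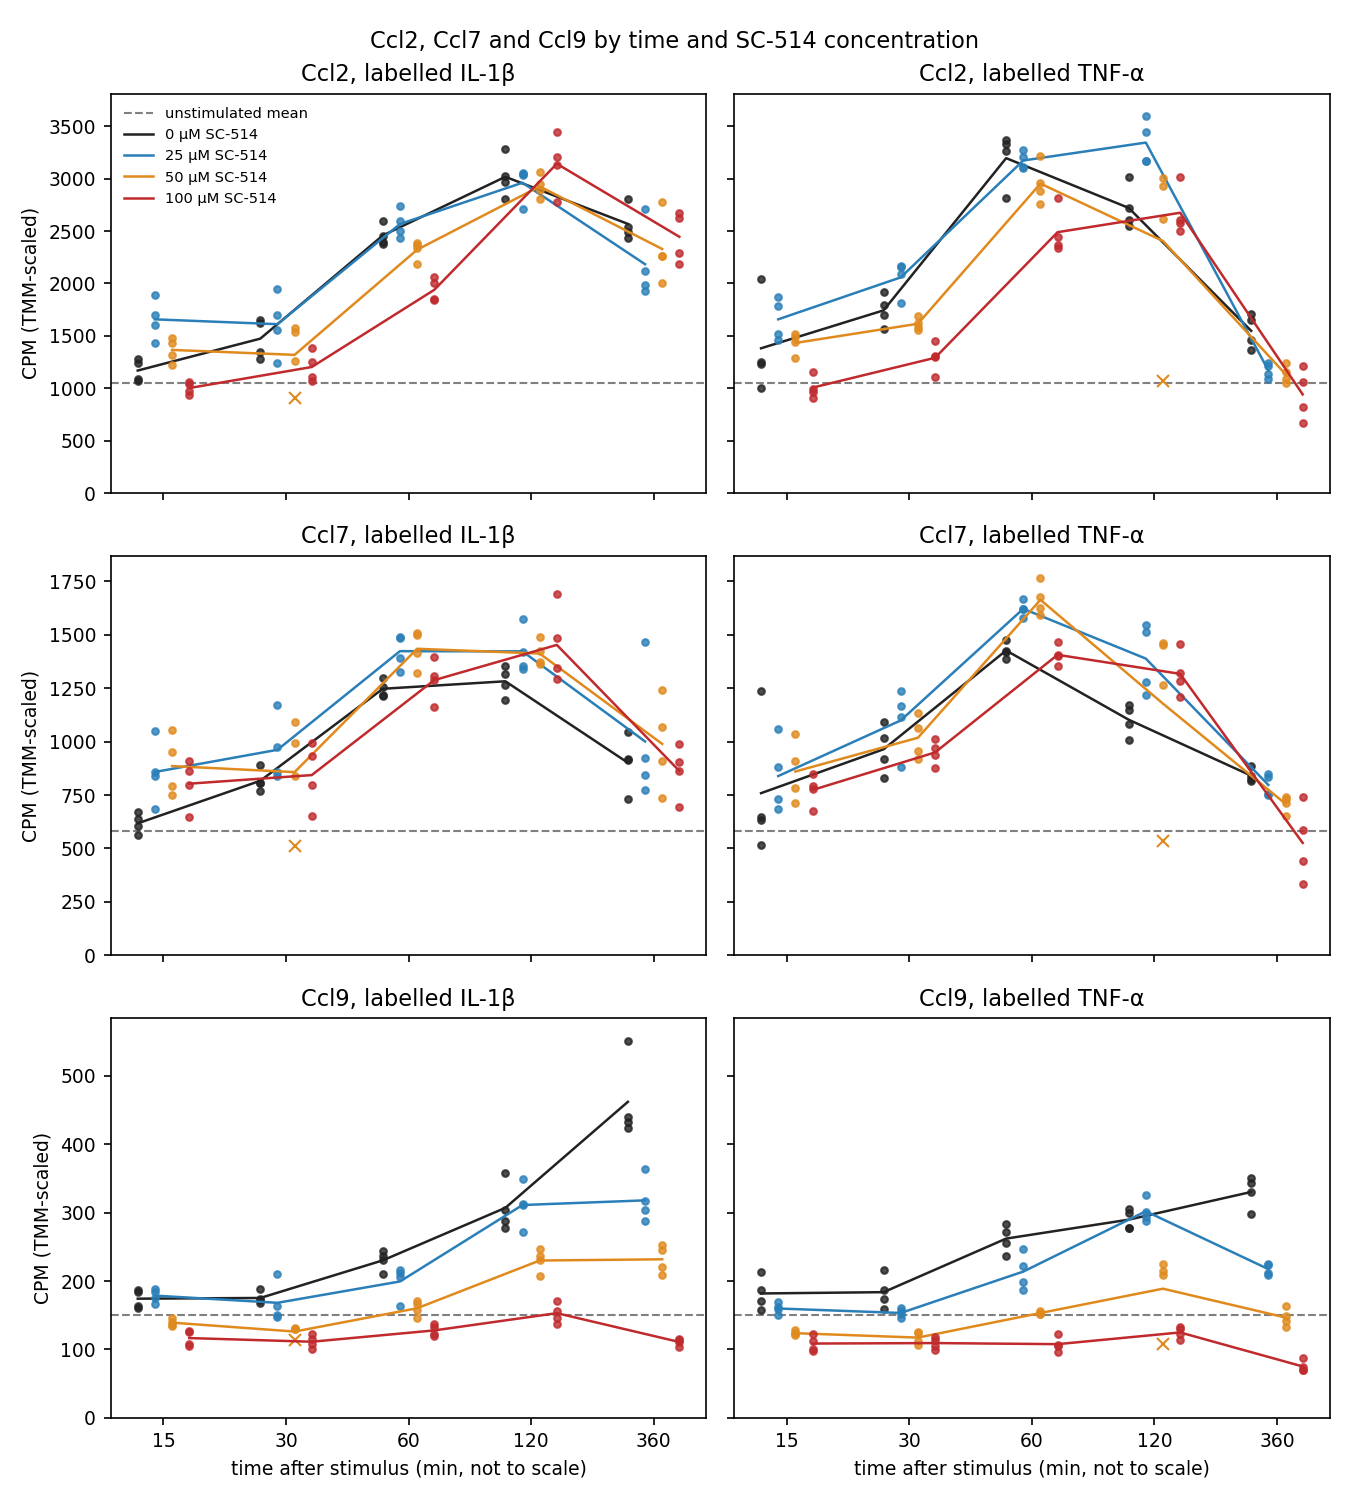
CPM (y axis, linear from 0) of Ccl2, Ccl7 and Ccl9 in each library at 15 to 360 min (x axis, evenly spaced), with lines through group means, colours for the SC-514 concentration and a dashed line at the unstimulated mean. Crosses mark the 2 shallow libraries; Ccl9 at 0 µM is highest at 360 min, at 462.2 CPM with IL-1β and 330.4 CPM with TNF-α, and at 100 µM no group mean of Ccl9 exceeds 153.1 CPM.

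The order of the levels over time was tested between neighbouring times without inhibitor. With IL-1β, 6 of 12 member steps were called, against a share of all genes of 0.232%, 1.60%, 4.24% and 9.39% for the steps ending at 30, 60, 120 and 360 min. Ccl2 rose from 30 to 60 min (0.738 ± 0.113), and its other neighbours did not differ at the threshold. Ccl7 rose from 30 to 60 min (0.61 ± 0.143) and fell from 120 to 360 min (-0.509 ± 0.143). Ccl9 rose at each of the last 3 steps, by 0.394 ± 0.0838, 0.415 ± 0.0796 and 0.589 ± 0.0771. Some of these calls depended on 1 library number: the Ccl7 rise was lost without number 4 (adjusted p = 0.0774), the Ccl7 fall without number 2 or 3 (0.0885 and 0.0615), and the first Ccl9 step without number 2 (0.0618).

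With TNF-α, 4 of 12 steps were called, where the shares of all genes were 0.325%, 2.60%, 9.34% and 11.8%. All 3 genes rose from 30 to 60 min, Ccl2 by 0.874 ± 0.113, Ccl7 by 0.564 ± 0.144 and Ccl9 by 0.506 ± 0.0856. Ccl2 alone of the 3 was called at a later step, which fell by 0.815 from 120 to 360 min. The Ccl7 rise was lost without library number 1, 2 or 3 (adjusted p = 0.123, 0.0514 and 0.0534). The steps of Ccl9 from 60 to 120 min and from 120 to 360 min, 0.151 ± 0.0827 and 0.188 ± 0.0812, did not pass the test. Without library number 4 at 15 min, 7 of the 12 steps were called.

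The next comparison asked how the level of each gene under a cytokine changed with SC-514. At 100 µM and IL-1β, 6 of 15 gene-by-time tests were called lower than at 0 µM, 5 of them Ccl9, and 1, Ccl7 at 15 min, was called higher. The share of all genes called lower was 13.5%, 12.5%, 14.4%, 16.2% and 15.7% at 15, 30, 60, 120 and 360 min. At 100 µM and TNF-α, 10 of 15 were called lower (Ccl9 5, Ccl2 4 and Ccl7 1), and the shares of all genes called lower were 13.2%, 10.8%, 13.6%, 15% and 15.4%. More than 10% of all genes tested were thus called lower at this concentration at each time, and the Ccl9 calls stand beside that background.

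Ccl9 was lower at 100 µM at every time under both labels. With IL-1β at 15 min, when no member at 0 µM was called above the unstimulated level, its libraries at 100 µM were 108.7, 125.7, 127.1 and 105.2 CPM against 161.3, 184.3, 164.3 and 187.2 CPM at 0 µM. These groups did not overlap, and the difference was -0.58 ± 0.0922 (adjusted p = 1.27e-07). It was -0.658, -0.852 and -1.0 at 30, 60 and 120 min. At 360 min the libraries at 100 µM were 111.3, 113.2, 116 and 103.1 CPM, and the difference was -2.06 ± 0.0881, a 4.16-fold lower level (adjusted p = 1.50e-50). This was the second smallest p of all genes tested in that comparison.

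With TNF-α the Ccl9 difference at 100 µM was -0.74, -0.754, -1.27 and -1.22 at 15, 30, 60 and 120 min. The 60 min libraries were 107.1, 95.76, 105.6 and 122.6 CPM at 100 µM and 256.3, 237.1, 283.2 and 272 CPM at 0 µM, with no overlap. At 360 min the libraries at 100 µM were 73.8, 69.66, 69.49 and 87.7 CPM. The difference of -2.13 ± 0.0883 there, 4.39-fold, had the smallest p of the 10766 genes (adjusted p = 3.46e-52). All 10 of these Ccl9 calls were kept in every alternative tried.

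The intermediate concentrations placed Ccl9 between these ends. With IL-1β at 360 min its means were 462.2 ± 59.83, 318.1 ± 32.51, 231.9 ± 20.97 and 110.9 ± 5.546 CPM at 0, 25, 50 and 100 µM. With TNF-α at 360 min they were 330.4 ± 23.04, 217.6 ± 7.785, 146.7 ± 12.87 and 75.16 ± 8.592 CPM. Under both labels the means stepped down with each concentration, and the change at 25 µM was -0.539 ± 0.0769 and -0.601 ± 0.0826 (adjusted p = 3.92e-08 and 3.37e-08). At 50 µM Ccl9 was called lower at all 5 times under both labels, with differences of -0.996 to -0.32 with IL-1β and -1.17 to -0.429 with TNF-α. The smallest of these, with IL-1β at 15 min, was lost without library number 2 (adjusted p = 0.0798).

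At 120 min Ccl9 was called lower at 50 µM but not at 25 µM. It stood at 311.3 ± 31.58 CPM at 25 µM with IL-1β and at 302.1 ± 16.6 CPM with TNF-α, against 307.1 and 289.8 CPM without inhibitor, and neither difference was called. The differences at 25 µM were 0.0185 (95% interval -0.137 to 0.173) and 0.0582 (-0.105 to 0.221).

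In the same 360 min comparisons, markers of other kinds moved as well. With TNF-α, 7 of 8 fibroblast markers were called lower at 100 µM, with a median log2 difference of -0.456 against 0.0178 over all genes tested, and their summed level was 5057 to 5570 CPM against 6818 to 7092 CPM at 0 µM. With IL-1β, 2 of 8 were called lower, and the summed levels were 5660 to 6561 CPM and 6124 to 6468 CPM. The libraries at 100 µM and TNF-α were also deeper, at 1846457 to 2020867 counts against 1030538 to 1275752 counts. The monocyte and macrophage markers summed to 11.35 to 40.01 CPM at 100 µM with IL-1β, against 40.16 to 56.07 CPM at 0 µM, and to 18.77 to 21.92 CPM against 42 to 49.53 CPM with TNF-α. Most of that fall was 1 gene, Cd14, a co-receptor for bacterial lipopolysaccharide, which went from 30.53 to 5.887 CPM with IL-1β and from 29.52 to 8.358 CPM with TNF-α. With IL-1β, Cd68 (4.567 and 5.458 CPM) and Lyz2 (5.811 and 6.997 CPM) were not lower. With TNF-α both were nominally lower, Cd68 at 5.122 and 4.786 CPM and Lyz2 at 5.863 and 4.818 CPM. Csf1r, under the filter, went from 3.542 to 1.54 CPM with IL-1β and from 3.139 to 1.751 CPM with TNF-α. Itgam and Ptprc, also under the filter, were nominally higher with IL-1β and lower with TNF-α, at means of at most 2.193 CPM. Library number 1 at 100 µM with IL-1β stood apart at 360 min, with 15303 genes detected against 13170 to 13529 and 40.01 CPM of these markers against 11.35 to 23.7 CPM, and at 120 min, with 14634 genes against 13198 to 13350. Without those libraries all 92 member calls were kept. The part of these shifts in the chemokine differences was not tested, and fewer cells expressing a gene cannot be told apart from less RNA per cell in bulk libraries.

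Ccl2 was called at 5 of 10 times at 100 µM, each time lower. With IL-1β the one call was at 60 min, where the libraries were 2006, 2058, 1848 and 1846 CPM at 100 µM and 2452, 2601, 2400 and 2381 CPM at 0 µM. The groups did not overlap, and the difference of -0.342 ± 0.112 (adjusted p = 0.0147) was lost without library number 2 or 3 (adjusted p = 0.0531 and 0.101). At 120 min the Ccl2 means were 3143 ± 274.9 CPM at 100 µM and 3018 ± 197.5 CPM at 0 µM, a difference of 0.0585 (95% interval -0.161 to 0.278). At 360 min the difference was -0.0702 (95% interval -0.291 to 0.151). In the same libraries the Ccl9 differences were -1.0 and -2.06.

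With TNF-α, Ccl2 was called lower at 100 µM at 4 of 5 times. At 30 min its libraries were 1107, 1448, 1299 and 1311 CPM against 1563, 1701, 1792 and 1919 CPM without inhibitor (-0.434 ± 0.114, adjusted p = 0.00282). At 60 min the difference was -0.361 ± 0.111 (adjusted p = 0.0108), which missed the threshold with DESeq2 (adjusted p = 0.0518) and without library number 3 or 4 (0.128 and 0.0664). The call at 15 min (-0.459 ± 0.115, adjusted p = 0.0013) rested on library number 4 at 0 µM, named above, without which the adjusted p was 0.214, and the groups overlapped. At 120 min the means were 2675 ± 234.5 and 2721 ± 210.5 CPM, with a difference of -0.0255 (95% interval -0.245 to 0.194).

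The late Ccl2 level with TNF-α was lower at every concentration. At 360 min its means were 1548 ± 162.2, 1170 ± 67.79, 1135 ± 84.51 and 942.2 ± 245 CPM at 0, 25, 50 and 100 µM. The libraries at 100 µM were 818.4, 669.3, 1217 and 1064 CPM, all below the lowest at 0 µM, 1368 CPM, and the difference was -0.716 ± 0.115 (adjusted p = 1.80e-07). The differences at 50 and 25 µM were -0.449 ± 0.115 and -0.402 ± 0.115 (adjusted p = 0.00407 and 0.0313). The first was lost without library number 3 (adjusted p = 0.0583), and the second in 5 of 12 alternatives, with adjusted p up to 0.289.

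Ccl7 had the fewest calls at 100 µM of the 3 genes, 2 of 10. It was called lower with TNF-α at 360 min, where its libraries were 441.8, 336.1, 739.6 and 587 CPM against 838, 813.8, 822.6 and 886.8 CPM at 0 µM. The libraries at 100 µM were spread widely but all lay below those at 0 µM, and the difference was -0.676 ± 0.147 (adjusted p = 1.39e-04). In a fit of those groups alone the adjusted p was 0.0963. The fibroblast markers that were lower in this same group are given above. At 60 min the Ccl7 differences were 0.0465 with IL-1β (95% interval -0.233 to 0.326) and -0.0207 with TNF-α (-0.3 to 0.258), and at 120 min the means were nominally higher with inhibitor, 1452 against 1282 CPM and 1316 against 1102 CPM, without a call.

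At 15 min with IL-1β, Ccl7 was higher with inhibitor. Its means were 617.5 ± 45.98, 857.5 ± 149.1, 885.3 ± 141.1 and 802.9 ± 113.5 CPM at 0, 25, 50 and 100 µM. The differences were 0.473 ± 0.148, 0.519 ± 0.148 and 0.38 ± 0.148 (adjusted p = 0.0228, 0.00827 and 0.0476). All 3 calls were lost without library number 4 of every group (adjusted p = 0.15, 0.115 and 0.242). Those at 25 and 100 µM were also lost without number 1 (0.0703 and 0.0938) or 2 (0.119 and 0.107). Ccl2 was called higher at 25 µM in the same comparison, 1658 ± 190.7 against 1169 ± 105.4 CPM (0.504 ± 0.114, adjusted p = 7.64e-04). It did not follow Ccl7 at the higher concentrations, with 1366 ± 115.7 CPM at 50 µM and 1002 ± 61.56 CPM at 100 µM. Neither of those differences was called, and each was called in 2 of 12 alternatives. The calls of Ccl7 and Ccl2 were made where 5.48%, 6.46% and 11.2% of all genes were called higher at 25, 50 and 100 µM. With TNF-α at 15 min no Ccl7 difference was called. There library number 4 at 0 µM stood at 1237 CPM and the others at 516.6 to 647.5 CPM. The lowest Ccl7 libraries at 25, 50 and 100 µM were 683, 713.9 and 674.2 CPM. The Ccl7 differences at 25 and 50 µM were each called in 1 of 12 alternatives.

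At the lower concentrations as a whole, 5 of 15 tests with IL-1β and 6 of 15 with TNF-α were called lower at 50 µM. Of all genes tested, 7.96%, 8.29%, 9.88%, 11.6% and 8.67% were called lower with IL-1β and 8.51%, 8.64%, 10.5%, 8.18% and 7.07% with TNF-α, from 15 to 360 min. At 25 µM, 1 of 15 was called lower with IL-1β and 4 of 15 with TNF-α, against 5.29%, 2.75%, 6.36%, 7.19% and 3.90% and against 4.09%, 4.63%, 5.58%, 4.79% and 2.26% of all genes. With TNF-α and 25 µM, the Ccl9 differences at 30 and 60 min, -0.26 ± 0.0894 and -0.289 ± 0.0841, were lost with DESeq2 (adjusted p = 0.0931 and 0.0539), without the filter (0.137 and 0.0505) and without library number 2 (0.0886 and 0.0654) or 3 (0.247 and 0.323), the first also without number 4 (0.337). With 50 µM and TNF-α at 120 min the Ccl2 mean was 2406 ± 904.4 CPM, and the shallow library in it stood at 1073 CPM.

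**Figure D2:**
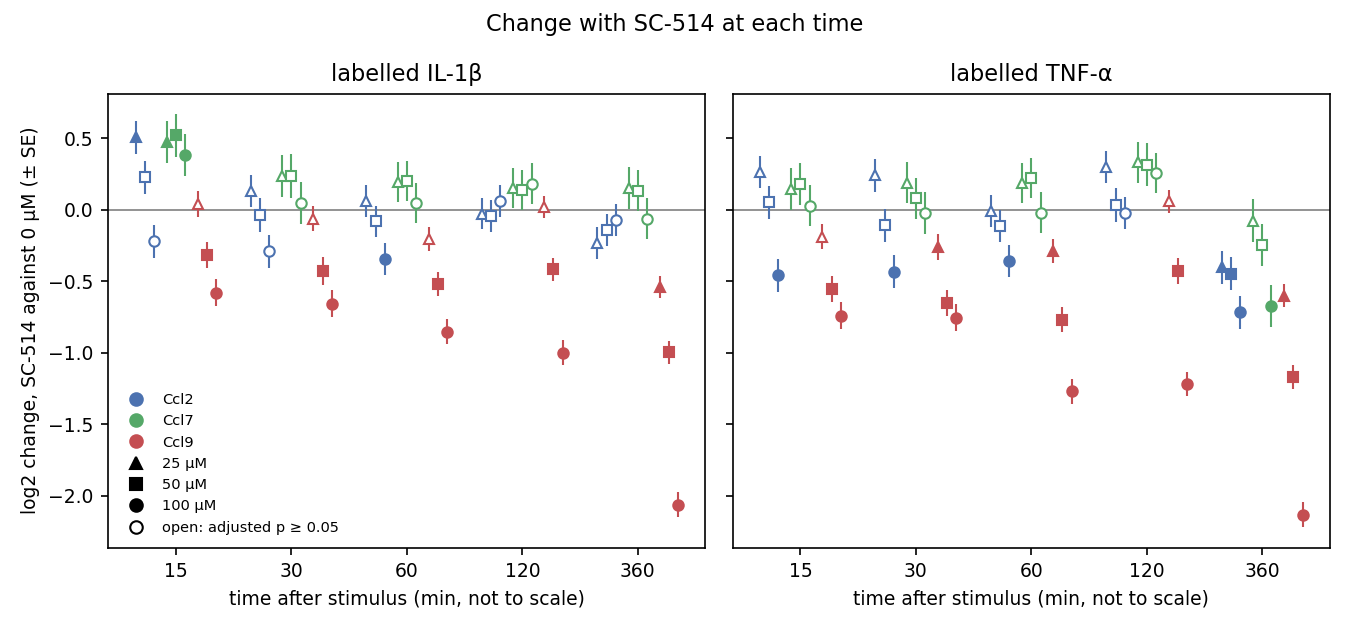
Log2 difference from 0 µM SC-514 (y axis, with SE bars) for each member at 25, 50 and 100 µM (triangles, squares, circles) and each time (x axis, evenly spaced), with filled symbols for adjusted p under 0.05. Ccl9 is lower at 100 µM at every time and reaches -2.06 and -2.13 at 360 min, while Ccl7 at 100 µM has filled symbols at 15 min with IL-1β and at 360 min with TNF-α.

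The level that remained with 100 µM SC-514 was then set against the unstimulated cells. With IL-1β 8 of 15 tests were called higher and 3 lower, where 10.7%, 10.4%, 10.3%, 11.4% and 15.6% of all genes were called higher and 12.4%, 11.7%, 11.9%, 11.3% and 14.8% lower. With TNF-α 6 of 15 were called higher and 5 lower, where the shares were 9.37%, 9.07%, 10.8%, 11.9% and 13.5% higher and 11.8%, 11.2%, 12.4%, 12.7% and 15.3% lower. These comparisons use the unstimulated libraries that the cytokine responses above use, and no group shows the inhibitor alone. Like those responses, they also cross column sets.

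Ccl2 still rose at 100 µM with IL-1β, by 0.881 ± 0.115, 1.58 ± 0.116 and 1.22 ± 0.115 at 60, 120 and 360 min, and for TNF-α by 1.24 ± 0.115 and 1.34 ± 0.115 at 60 and 120 min. Ccl7 was above the unstimulated level at all 5 times with IL-1β, up to 1.32 ± 0.148 at 120 min, and at the first 4 times with TNF-α, up to 1.27 ± 0.147 at 60 min. The early Ccl7 calls depended on single library numbers: with IL-1β the 15 min call was lost without number 1 or 4 (adjusted p = 0.058 and 0.0664) and the 30 min call without number 4 (0.0585), and with TNF-α the 15 min call without number 1, 3 or 4 (0.0579, 0.202 and 0.0894). Ccl9 was called higher at none of the 10 times. It was below the unstimulated level at 15, 30 and 360 min with IL-1β (-0.372, -0.44 and -0.44) and at all 5 times with TNF-α. The TNF-α difference at 360 min was -1.0 ± 0.0939, a level 2-fold lower than in cells that had received no cytokine. The TNF-α call at 120 min (-0.271 ± 0.0897) was lost in 4 of 12 alternatives, with adjusted p up to 0.231.

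Because the 3 genes are read in the same libraries, their unequal change was also tested as a ratio of counts within each library, which does not depend on how libraries are scaled. The 30 ratio tests were added after the values had been seen. They cover only pairs of these 3 genes, so no share over other gene pairs stands beside the counts that follow. How often other pairs separate without overlap at 100 µM was not tested. Each is a two-sided exact permutation test of 4 against 4 libraries, whose smallest possible p is 0.0286. The log2 ratio of Ccl9 to Ccl2 was lower at 100 µM in every library, without overlap, in 8 of 10 comparisons (exact p = 0.0286, adjusted 0.0343). The exceptions were IL-1β at 30 min (exact p = 0.114, adjusted 0.127) and TNF-α at 15 min (exact p = 0.2, adjusted 0.214).

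At 360 min with IL-1β the log2 ratio of Ccl9 to Ccl2 was -2.48 ± 0.0884 at 0 µM and -4.45 ± 0.108 at 100 µM, a ratio 3.93-fold lower. With TNF-α at 360 min it was -2.22 ± 0.121 and -3.61 ± 0.369, 2.62-fold lower. The ratio of Ccl9 to Ccl7 was lower at 100 µM without overlap in 10 of 10 comparisons, with differences of -1.98 to -0.686 on the log2 scale (exact p = 0.0286 each, adjusted 0.0343).

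The pair Ccl2 and Ccl7, which are neighbours in the genome, also changed unequally at early times. The log2 ratio of Ccl7 to Ccl2 was higher at 100 µM without overlap in 7 of 10 comparisons. It went from -0.919 ± 0.17 to -0.33 ± 0.137 with IL-1β at 15 min and from -0.897 ± 0.115 to -0.379 ± 0.149 with TNF-α at 15 min (exact p = 0.0286 each, adjusted 0.0343). At 360 min it was -1.52 ± 0.185 and -1.51 ± 0.172 with IL-1β, and -0.876 ± 0.145 and -0.865 ± 0.113 with TNF-α (exact p = 0.914 and 0.857). With IL-1β at 120 min the groups also overlapped (exact p = 0.114).

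**Figure D3:**
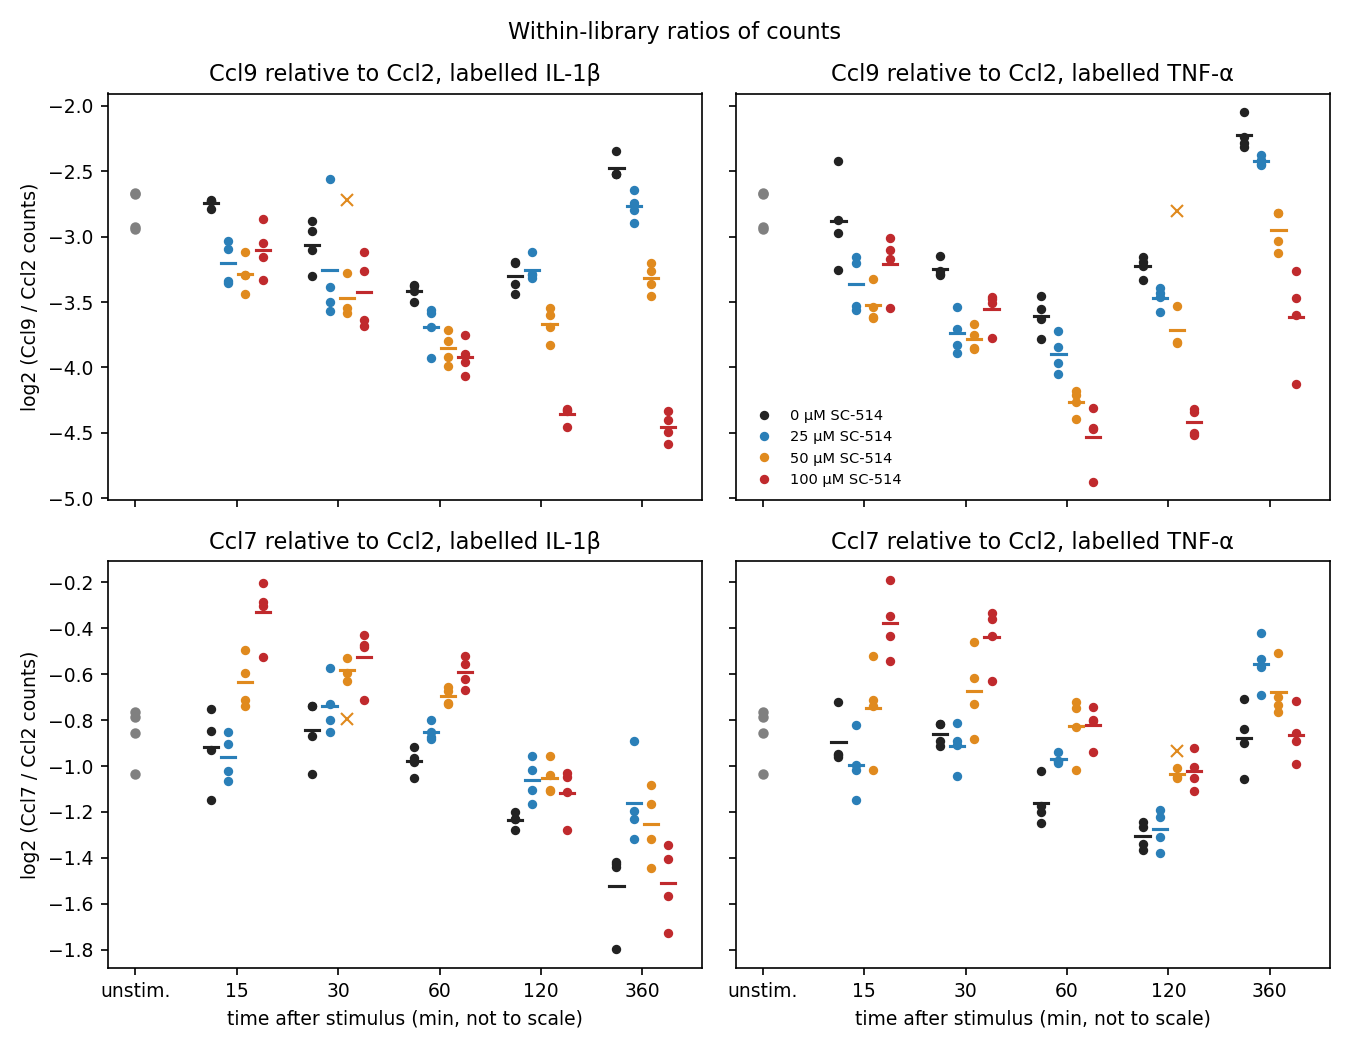
Log2 ratio of counts within each library (y axis) of Ccl9 to Ccl2 and of Ccl7 to Ccl2, by time (x axis, evenly spaced, with unstimulated libraries at the left) and SC-514 concentration. Crosses mark the 2 shallow libraries, and bars show the mean of the libraries without these. At 360 min with IL-1β the Ccl9 to Ccl2 ratio falls from -2.48 to -4.45 between 0 and 100 µM, and the Ccl7 to Ccl2 ratios of these groups overlap.

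The responses under the 2 cytokine labels were compared without inhibitor at each time, and the direction of each difference rests on those labels. Of 15 tests 2 were called, both at 360 min, where 9.46% of all genes were called in either direction. At 15, 30, 60 and 120 min that share was 0.0372%, 0.186%, 1.26% and 1.02%. Ccl2 was higher with IL-1β at 360 min, with libraries at 2807, 2538, 2491 and 2438 CPM against 1368, 1457, 1711 and 1656 CPM (0.731 ± 0.113, adjusted p = 2.08e-07). Ccl9 was higher with IL-1β as well (0.484 ± 0.0783, adjusted p = 3.98e-07), and neither pair of groups overlapped. The Ccl7 difference at that time was 0.10 ± 0.147 (95% interval -0.19 to 0.391). At 60 min Ccl2 stood nominally lower with IL-1β (-0.378 ± 0.111, adjusted p = 0.064), and 4 of 12 alternatives called that difference.

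The difference between cytokines in the effect of 100 µM SC-514 was tested directly. It was called for 1 of 15 tests, Ccl2 at 360 min, at 0.646 ± 0.16 on the log2 scale (adjusted p = 0.0131), where 1.98% of all genes were called. At 15, 30, 60 and 120 min the shares were 0.149%, 0.0557%, 0.697% and 1.07%. The Ccl2 difference was -0.716 with TNF-α and -0.0702 with IL-1β. This call was lost in a fit of those groups alone (adjusted p = 0.204) and without library number 1, 2 or 3 of every group (0.0569, 0.145 and 0.0784). For Ccl9 at 360 min the difference was 0.077 (95% interval -0.171 to 0.325), and for Ccl7 it was 0.613 (95% interval 0.203 to 1.02, adjusted p = 0.0977).

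Across the 41 group means of log2 CPM, Ccl2 and Ccl7 moved together most, with Pearson's r of 0.88. Ccl2 and Ccl9 had an r of 0.543 and Ccl7 and Ccl9 one of 0.321. These are descriptions over groups that share a cell line and, for many, a cytokine or concentration. Among 9906 other genes averaging 5 CPM or more, the 5 most like Ccl2 were Ptgs2 (r = 0.944), Adm (0.922), Ccl20 (0.919), Rhob (0.914) and Lif (0.905). Ptgs2 encodes the inducible cyclooxygenase and Lif a cytokine of the interleukin-6 family. Most like Ccl7 were Lif (0.928), Csf2 (0.906), Tnfaip3 (0.903), Phlda1 (0.899) and Adm (0.896). Adm encodes the peptide adrenomedullin, Csf2 a growth factor of granulocytes and macrophages and Tnfaip3 the NF-κB inhibitor A20. Lif and Adm stand on both of these lists. Ccl9 shared none of its 5 with them: they were Mmp10 (0.91), Slpi (0.905), Sgk1 (0.868), S1pr3 (0.862) and Pde4b (0.856). Mmp10 encodes a matrix metalloproteinase and Slpi an inhibitor of secreted proteases.

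Other CC chemokines and monocyte ligands were taken from a list of 20 genes, of which 19 were in the table and 8 passed the filter. With IL-1β alone 3 of the 8 rose at 60 min and 5 at 360 min, with median log2 differences of 0.294 and 0.986 against -0.0012 and -0.00955 over all genes tested. With TNF-α alone 3 rose at 60 min and 4 at 360 min (medians 0.236 and 0.513, against 0.00331 and 0.00438). None of the 8 fell in these 4 comparisons. Of all genes tested, 2.74% and 12.3% were called higher with IL-1β at 60 and 360 min, and 4.15% and 3.62% with TNF-α. Ccl20, which attracts lymphocytes and dendritic cells through Ccr6, had the largest early rise, from 1.96 ± 1.455 CPM to 257.5 ± 18.39 CPM with IL-1β at 60 min and 538.8 ± 39.07 CPM with TNF-α. Ccl5, which attracts T cells and monocytes, was not called at 60 min and rose at 360 min, from 28.3 ± 7.624 CPM to 400.3 ± 92.9 CPM with IL-1β (log2 difference 3.82 ± 0.281) and 186 ± 29.91 CPM with TNF-α (2.72 ± 0.302). Csf1, the growth factor on which macrophages depend, rose by 0.713 ± 0.0869 with IL-1β at 60 min, and by 0.975 ± 0.0876 for TNF-α. Ccl8, which lies in the same chromosome 11 cluster, was not called at 60 min (0.14 ± 0.152 with IL-1β, 0.14 ± 0.159 for TNF-α).

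At 100 µM against 0 µM SC-514, the share of all genes called lower at 60 min was 14.4% for IL-1β, 13.6% for TNF-α, and at 360 min 15.7% and 15.4%. The share called higher was 11.5% and 8.32% at 60 min, and 13.9% and 11.4% at 360 min, and the counts of each list below stand beside these shares. With 100 µM SC-514, 3 of the 8 fell and 0 rose at 60 min under each label, with medians of -0.305 and -0.352 against 0.00881 and 0.00738 over all genes tested. At 360 min 3 fell with IL-1β and 2 with TNF-α (medians -0.312 and -0.231, against 0.0364 and 0.0178). Ccl20 fell by 2.58 at 60 min with IL-1β and by 2.1 with TNF-α. Cx3cl1, a membrane-bound monocyte ligand, fell by 1.37 and 1.07. At 360 min Ccl5 fell by 0.952 with IL-1β and by 0.966 with TNF-α. Csf1 differed by -0.132 ± 0.0846 at 60 min with IL-1β and was not called (adjusted p = 0.268), and it fell by 0.409 with TNF-α. Among these genes and the 3 members, Ccl9 at 360 min and Ccl20 at 60 min had the largest log2 differences under both labels.

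**Figure D4:**
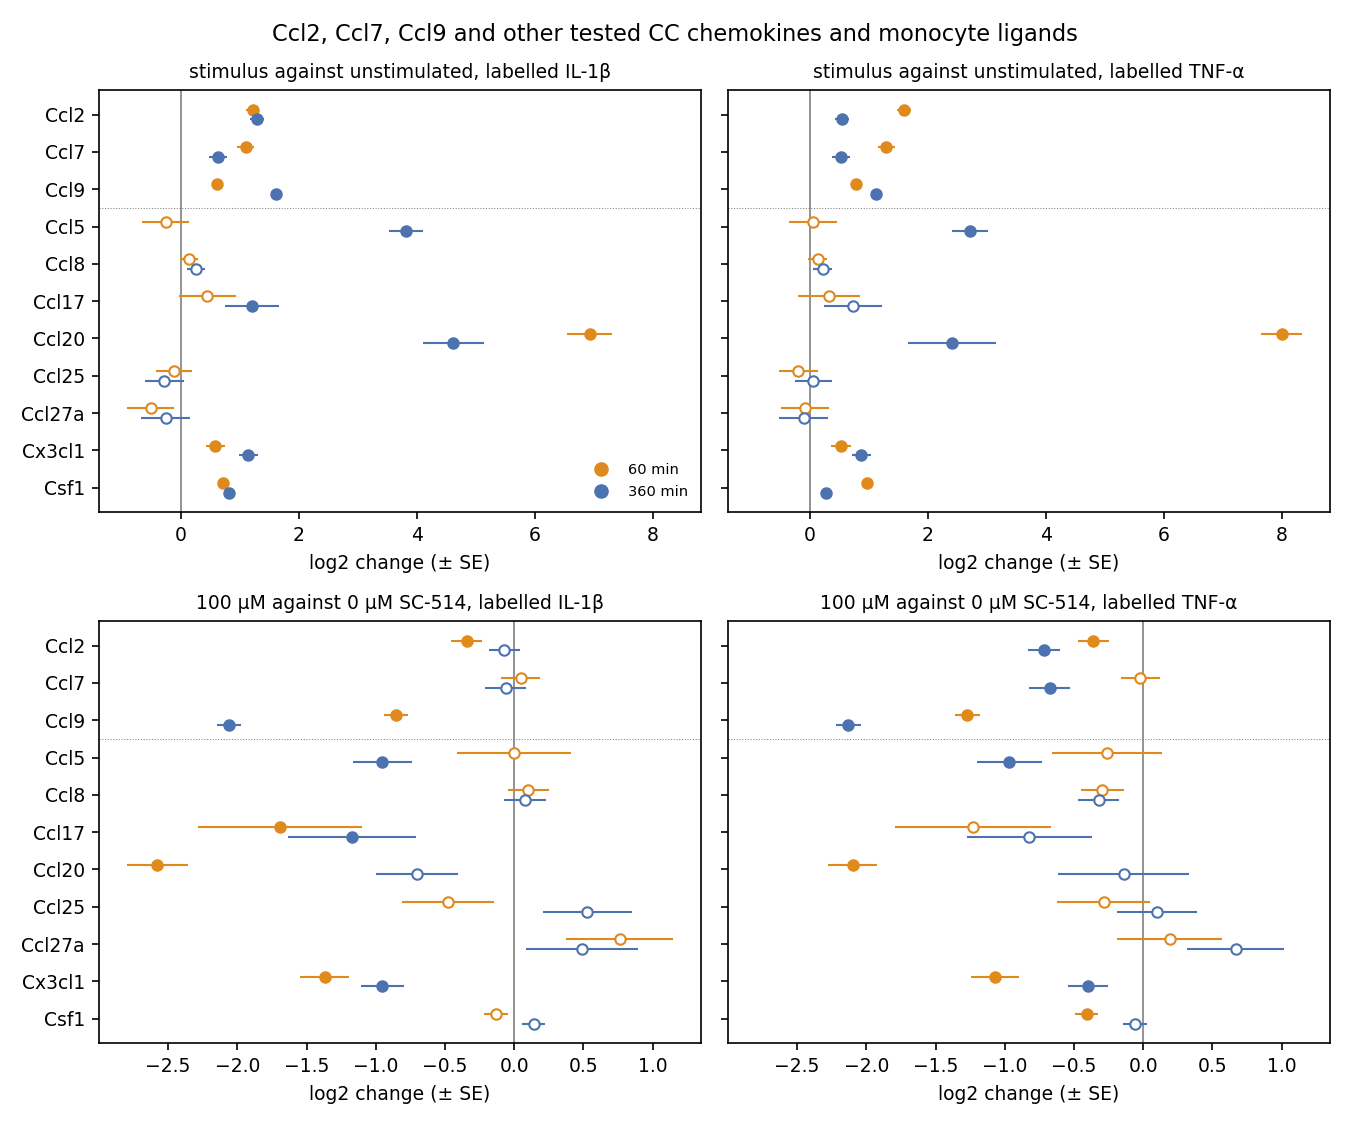
Log2 differences (x axis, with SE bars) at 60 and 360 min for Ccl2, Ccl7 and Ccl9 (above the dotted line) and the 8 tested genes of the list, for each cytokine against unstimulated cells (top) and for 100 µM against 0 µM SC-514 (bottom), with filled symbols for adjusted p under 0.05. In the lower panels Ccl9 lies at -2.06 and -2.13 at 360 min, and Ccl5 is at -0.952 and -0.966.

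The receptors of these chemokines were scarce in the fibroblasts. Of 11 receptor genes 10 were in the table and 2 passed the filter. Ccr2, the receptor of Ccl2 and Ccl7, averaged 0.9444 ± 1.114 CPM in unstimulated cells, and Ccr1, the receptor of Ccl9, 0.6193 ± 0.7776 CPM, with 91 and 30 counts over all 164 libraries. Ccrl2, an atypical receptor that does not signal through G proteins, rose from 0.5624 ± 0.6995 CPM to 5.098 ± 1.343 CPM with IL-1β at 60 min and to 10.19 ± 2.625 CPM with TNF-α (adjusted p = 0.0192 and 2.75e-05).

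All 14 genes of the NF-κB pathway list were tested. With a cytokine alone 8 rose at 60 min and 9 at 360 min with IL-1β, whereas 9 and 3 rose with TNF-α. The medians were 0.557 and 0.706 at 60 min and 1.09 and 0.188 at 360 min, against all-gene medians of -0.0012, 0.00331, -0.00955 and 0.00438. The share of all genes called higher was 2.74% and 12.3% with IL-1β at 60 and 360 min, and 4.15% and 3.62% with TNF-α. Nfkbiz, also on this list, stood at 32.22 ± 7.554 CPM in unstimulated cells. At 60 min it was at 53.04 ± 6.953 CPM with IL-1β and at 483.9 ± 20.4 CPM with TNF-α, a direction that rests on the labels. Nfkbia, the gene of IκBα, stood at 140.4 ± 9.48 CPM in unstimulated cells and rose by 3.5 ± 0.143 with IL-1β at 60 min, and by 3.94 ± 0.144 for TNF-α. At 360 min it was still higher with IL-1β, at 503.7 ± 61.11 CPM (1.84 ± 0.147), and differed by 0.197 ± 0.165 with TNF-α, without a call. Ccl2 also stood lower with TNF-α than with IL-1β at that time, where 9.46% of all genes were called in either direction. A link between Nfkbia and Ccl2 was not tested.

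With 100 µM SC-514, 6 of the 14 fell and 1 rose at 60 min with IL-1β, and 7 fell and 1 rose with TNF-α. At 360 min 4 fell and 1 rose with IL-1β, and 3 fell and 1 rose with TNF-α. The medians were -0.345, -0.307, 0.0441 and 0.0163, beside 0.00881, 0.00738, 0.0364 and 0.0178 over all genes. Tnfaip3 fell by 1.95 and 1.51 at 60 min and Bcl3, which encodes a nuclear IκB family member, by 1.66 and 2.0. Nfkbia fell by 0.386 with IL-1β at 60 min, and Nfkb2, the gene of the p100 precursor, rose by 0.364 and 0.362. The differences of Ccl2 at 60 min were -0.342 and -0.361 and those of Ccl9 -0.852 and -1.27, and a link to the genes of this list was not tested.

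Of the 11 genes for cytokine receptors and their adaptors, 2 rose at 60 min and 4 at 360 min with IL-1β, whereas 1 and 0 rose with TNF-α, with no fall (medians 0.0279 and 0.227 for IL-1β and 0.0602 and 0.127 for TNF-α). Beside these counts, 2.74% and 12.3% of all genes were called higher with IL-1β, and 4.15% and 3.62% with TNF-α. With 100 µM SC-514, 2 fell and 1 rose at 60 min with IL-1β, and 2 fell with TNF-α, counts near the shares of all genes given above. At 360 min 1 fell and 1 rose with IL-1β, and 2 fell and 2 rose with TNF-α (medians at 60 and 360 min -0.00254 and 0.021 with IL-1β and -0.04 and 0.0286 with TNF-α). Il1rap, the co-receptor for IL-1, fell by 1.02 at 60 min and by 1.2 at 360 min with IL-1β.

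Chemokine transcripts are unstable, and 7 genes for proteins that bind and degrade or stabilise such transcripts were examined. With a cytokine alone 5 of the 7 rose at 60 min under each label (medians 0.543 for IL-1β, 0.674 for TNF-α). At 360 min 3 rose and 1 fell with IL-1β and 2 rose with TNF-α (medians 0.369 and 0.256), where 9.4% of all genes were called lower with IL-1β. The shares of all genes called higher were 2.74% and 12.3% with IL-1β at 60 and 360 min, and 4.15% and 3.62% with TNF-α. Zfp36, which encodes the decay factor tristetraprolin, went from 24.22 ± 9.709 CPM to 365.6 ± 44.66 CPM with IL-1β at 60 min, and for TNF-α to 585.3 ± 29.38 CPM. With 100 µM SC-514, 5 of 7 fell at 60 min under each label (medians -0.289 and -0.57). At 360 min 5 fell and 1 rose with IL-1β and 4 fell with TNF-α (medians -0.331 and -0.229). The medians of all genes tested were 0.00881 and 0.00738 at 60 min and 0.0364 and 0.0178 at 360 min. Hnrnpd, which encodes the AU-rich element binding protein AUF1, fell by 1.14 and 1.17 at 360 min, and Zfp36 rose by 1.03 with IL-1β.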

How the data were processed

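The data are read counts per gene from 164 TagSeq libraries in 41 groups of 4; 656 sample records, 4 per library, describe them. The deposited counts were made by the authors from reads aligned with Bowtie2 to GRCm38 (mm10), per the submitters' processing notes. For the counting tool, its strand setting and the annotation, the sources used here give nothing. Columns were assigned to groups by the names in the sample descriptions.

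Of 22070 genes, 10766 passed edgeR's filterByExpr. One edgeR (version 4.0.16) robust quasi-likelihood fit covered all 41 groups with TMM scaling and no replicate block, and each of 68 contrasts was adjusted by Benjamini-Hochberg over all genes tested, with a threshold of 0.05. An SE is the log2 difference divided by the square root of F. Tested on simulated data for IL-1β at 60 min (10766 genes), this fit recovered 45.5%, 82.1% and 98.5% of changes of 0.5, 1 and 2, and 7.93% of calls were false. The changes were put into 66, 67 and 67 genes averaging 5 CPM or more, and all other genes were flat. In the SC-514 comparisons many more genes were called, so these rates need not hold there. Library numbers were not taken as pairs. Of 63 group comparisons, 30 had every same-number correlation above 0 but 0 had every one over 0.1. These 30 included every comparison of SC-514 with 0 µM, and of successive times, labelled TNF-α. A fit with the number as a block is given below. Replicates differed by more than sampling noise (chi-square per degree of freedom 1.08 to 5.49) apart from pairs with a shallow library (0.981 to 1.01).

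The members and gene lists were chosen with earlier results of these data known. Beside the members, the text names the 5 genes most correlated with each and members of these lists. Ratios used counts plus 0.5 and exact permutation tests. Alternatives were DESeq2 (1.42.0), RLE size factors, no filter, a fit of the compared groups alone, a replicate block, leaving out each library number, leaving out the shallow libraries, and 2 chosen after seeing the data. Outside the shallow libraries, endothelial, epithelial and adipocyte markers summed to at most 21.6, 5.22 and 20.9 CPM. Depth limits low values: 1 count was 0.722 CPM in the first unstimulated library. 1 receptor gene of the lists is not reported here.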

Additional observations from a re-analysis of the deposited data

Results flagged for a closer look

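In groups of 4 libraries, 1 library stood far from the other 3 in 5 of 123 gene-by-group checks, where chance flags about 1 in 20 (6.15 expected). Ccl9 in unstimulated library number 2 was 168.5 CPM against 143.2 to 147.2 CPM, and with IL-1β at 360 min without inhibitor it was 551.4 CPM in library number 1 against 423.7 to 440.3 CPM. Ccl9 was low in both shallow libraries, at 113.4 CPM against 130.2 to 130.8 CPM (IL-1β, 50 µM, 30 min) and at 107.3 CPM against 208.2 to 225.5 CPM (TNF-α, 50 µM, 120 min), values that rest on 2 counts and 1 count. Ccl2 with IL-1β and 25 µM at 120 min was 2708 CPM in library number 3 against 3034 to 3055 CPM.

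At 360 min 3 differences between the cytokines, as labelled, passed their test. Without inhibitor Ccl2 was higher with IL-1β than with TNF-α by 0.731 (log2) and Ccl9 by 0.484. The effect of 100 µM SC-514 on Ccl2 differed between them by 0.646, a call that 4 alternatives did not keep.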

How the results depend on the processing

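Of 92 called member results, 69 were called in all 12 alternatives, and of 112 uncalled ones, 71 were uncalled in all of them; 0 changed direction. Counts of calls moved by over 1.5 times as follows. The difference of the 100 µM effect between cytokines (1 call) became 0 in a fit of the groups compared alone, 2 without the filter on low counts, and 0 to 1 with a library number left out. The comparison of IL-1β with TNF-α (2) became 6 without the filter. Calls lower at 25 µM with IL-1β (1) became 2 without the filter, and those with TNF-α (4) became 1 with DESeq2, 2 without the filter and 1 to 4 with a library number left out. Successive times with IL-1β (6) became 10 without the filter, and those with TNF-α (4) became 7 in a fit of the groups alone, 9 without the filter and 7 without TNF-α library number 4 at 15 min. Calls higher with IL-1β at 100 µM (1) became 0 without library number 1, 2 or 4, those at 50 µM (1) became 0 without number 4 and 4 without the filter or in a fit of the groups alone, and those at 25 µM (2) became 1 without number 1, 2 or 4. With TNF-α, where 0 were called higher, a fit of the groups alone, no filter and leaving out TNF-α library number 4 at 15 min gave 4, 4 and 3 at 25 µM and 1, 2 and 1 at 50 µM, the first pair of settings gave 1 each at 100 µM, and leaving out number 4 of every group gave 1 at 25 µM. The cause was not tested.

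With the replicate number as a block, all 92 calls were kept and 2 others were added, giving 7 calls lower at 100 µM with IL-1β in place of 6. The libraries are known to share only a number, though some numbers were alike in several groups: with IL-1β at 360 min number 1 had the highest Ccl2 and number 2 the lowest Ccl7 at all 4 concentrations. DESeq2's and RLE size factors moved the median log2 difference of all genes by up to 0.125. Those settings reversed no member call.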
